A study of Mus musculus with 6 samples.

Results

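Transcripts of 8 forebrain patterning transcription factors, Emx2, Lhx2, Otx1, Pax6, Six3, Nr2f1, Nr2f2 and Tcf4, were compared between WT and Setd5+/- neural stem cells (NSCs). The 8 genes were taken by symbol from the deposited table, which lists 53110 genes, and each matched 1 row. All 8 averaged 10 or more normalized counts over the 6 samples and so belonged to the 16266 genes that were tested. The cells were primary cortical NSCs, dissected from the embryonic mouse cortex and grown as an adherent layer on Matrigel with bFGF and EGF at 21% oxygen. The mutant cells carried a heterozygous loss of Setd5, a gene for a SET domain chromatin protein, made with CRISPR-Cas9. The labels give the other cells as wild type, and both groups shared the medium and the oxygen level.

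These factors bind DNA and divide the early forebrain into territories. Emx2, Lhx2 and Pax6 are homeodomain factors that work in the progenitors of the dorsal telencephalon, where Emx2 and Pax6 form opposing gradients and Lhx2 holds cortical identity against that of the cortical hem. Otx1 belongs to the orthodenticle family of the fore- and midbrain, Six3 acts in the most anterior neural plate and the eye field, Nr2f1 (COUP-TFI) and Nr2f2 (COUP-TFII) are orphan nuclear receptors of the caudal cortex and the caudal ganglionic eminence, and Tcf4 is a broadly expressed E protein that pairs with proneural bHLH factors.

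The labels list 3 samples of each genotype. In the column names the 3 samples of a genotype carry the same index and lane, and all mutant columns name a single clone, A3. These columns were taken as Setd5+/- because the other 3 are named as wild type, and the clones named in the study's text are others. Within a genotype the samples also differed by no more than random sampling of read pairs, with a chi-square per degree of freedom between 0.962 and 0.987 against 34.8 to 34.9 between genotypes. They were therefore treated as 3 parts of 1 library, and n is 1 per genotype. Genotype, clone, index and lane cannot be told apart in this design, and no value here measures how cultures of the same genotype differ. Each WT sample held 9995980 to 10004948 reads on genes and each Setd5+/- sample 7143309 to 7146147. Setd5 itself, the edited gene, had 2498, 2749 and 2780 normalized counts in WT and 2151, 1990 and 2055 in Setd5+/-, a level 1.3-fold lower (95% counting interval 1.24 to 1.36).

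The 8 factors split into 3 that were lower in the Setd5+/- library, Lhx2, Otx1 and Emx2, and 5 that were higher, Pax6, Nr2f1, Nr2f2, Six3 and Tcf4. A 2-fold difference was passed by 2 of the 8, Nr2f2 and Six3, both higher, where 16.4% of all tested genes differed by that size, 10.3% higher and 6.14% lower. Both had reached the mean of 10 normalized counts through the Setd5+/- library alone, with WT means of 2.21 and 6.07, so they could have entered only as higher, and none of the other 6 factors passed 2-fold. The reads of the 2 libraries differed for all 8 factors by limma, at an adjusted p under 0.05 over all tested genes, with 5 higher and 3 lower. That call was made for 61.3% of all tested genes, 30.3% higher and 30.9% lower. Six3 lost the call, which left 4 higher, without a filter on low values, at an adjusted p under 0.01 and without the third WT sample. The 3 values of a genotype did not overlap those of the other genotype for any of the 8, as was so for 65.3% of tested genes. The median log2 fold change of the 8 was 0.31, beside -0.02 over all tested genes, and it covers factors of opposite direction. It was -0.15 over the 6 factors left at a minimum mean of 50, and 0.19 without the second Setd5+/- sample. In bulk RNA, fewer cells with a transcript and less of it per cell cannot be told apart.

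**Figure D1:**
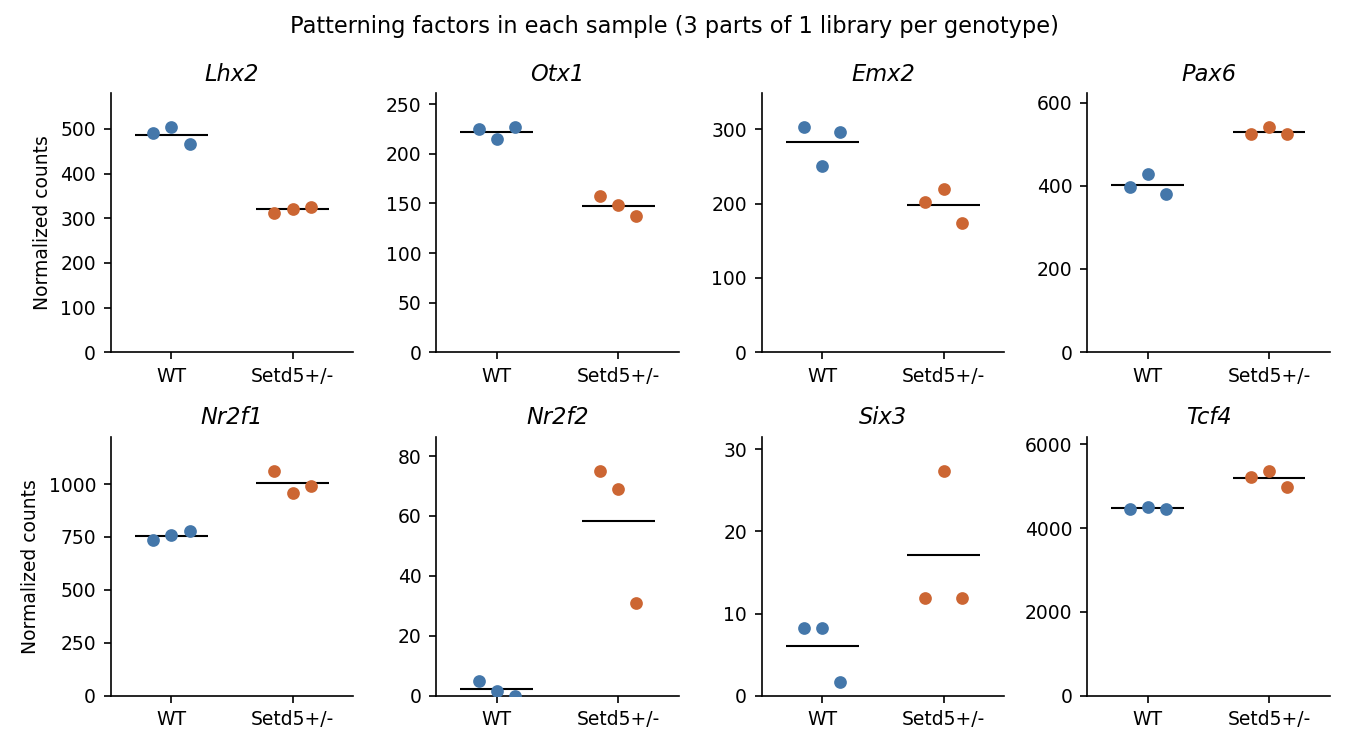
Normalized counts (vertical axes, each starting at 0) of the 8 patterning factors in the 3 WT and the 3 Setd5+/- samples, with a bar at the mean of the 3 parts of each library. Lhx2, Otx1 and Emx2 lie lower in Setd5+/-, the other 5 lie higher, and no panel has overlapping groups, though Six3 and Nr2f2 rest on few reads.

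Lhx2, the LIM homeodomain factor of cortical progenitors, had 491.7, 503.8 and 467.1 normalized counts in WT and 312.3, 321.5 and 325.2 in Setd5+/-. All 3 mutant values lay below the lowest WT value. The level was 1.53-fold lower in Setd5+/- (counting interval 1.35 to 1.72), and 14.6% of tested genes had a log2 fold change as low or lower. Lhx2 lies at chr2:38339281-38369733 on the plus strand (GRCm38, GENCODE vM21).

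Otx1, an orthodenticle homeodomain factor of deep cortical layers and their progenitors, had 224.7, 215.1 and 226.9 normalized counts in WT and 157.3, 148.9 and 137.0 in Setd5+/-. Each mutant sample was below each WT sample, and the level was 1.5-fold lower (1.26 to 1.8). Otx1 lies at chr11:21994764-22002897 on the minus strand.

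Emx2, the homeodomain factor of the caudal and medial cortex, had 302.7, 249.8 and 296.5 normalized counts in WT and 202.6, 219.1 and 173.9 in Setd5+/-. The lowest WT sample and the highest mutant sample stood closer together than for Lhx2 or Otx1, without overlap. The level was 1.43-fold lower (1.22 to 1.66). The intervals of Lhx2, Otx1 and Emx2 overlap, so the order of these 3 ratios was not resolved at this depth. Emx2 lies at chr19:59458372-59465357 on the plus strand.

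Pax6, the paired-domain factor of the rostral and lateral cortex and of the eye, had 398.0, 427.7 and 380.1 normalized counts in WT and 524.4, 540.6 and 524.1 in Setd5+/-. Every mutant value was above every WT value, and the level was 1.32-fold higher (1.18 to 1.47). Pax6 lies at chr2:105668900-105697364 on the plus strand, the same chromosome as Lhx2.

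Nr2f1, the nuclear receptor that sets the sensory areas of the caudal cortex, had 734.7, 757.8 and 776.0 normalized counts in WT and 1063, 956.3 and 992.3 in Setd5+/-. The level was 1.33-fold higher (1.23 to 1.43), with an interval that overlaps that of Pax6. Nr2f1 lies at chr13:78188973-78199757 on the minus strand.

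Nr2f2, the paralog of Nr2f1 known for interneurons of the caudal ganglionic eminence, showed the largest ratio of the 8. It had 4.98, 1.65 and 0 normalized counts in WT, from 6, 2 and 0 reads, and 75.1, 69.1 and 31.0 in Setd5+/-, from 63, 58 and 26 reads. The WT samples were near or at 0, and even the lowest mutant sample stood well above them. The level was 26.4-fold higher, with a counting interval from 9.90 to 99.6 because the WT library held 8 reads in all. On the scale of log2(normalized count + 1) the difference was 4.21, and 0.480% of tested genes had one as high or higher. The third mutant sample stood below the other 2, and without the first WT sample, which held 6 of the 8 WT reads, the log2 fold change was 5.02. Nr2f2 lies at chr7:70351944-70366735 on the minus strand.

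Six3, the factor of the anterior neural plate and eye field, rested on few reads. It had 8.29, 8.27 and 1.66 normalized counts in WT, from 10, 10 and 2 reads, and 11.9, 27.4 and 11.9 in Setd5+/-, from 10, 23 and 10 reads. The second mutant sample was the highest, and the lowest mutant samples held no more reads than 2 of the WT samples. The ratio was 2.81-fold higher (1.3 to 6.44), and the log2 fold change of 1.35 was reached or passed by 6.43% of tested genes. Without the second mutant sample Six3 had a mean under 10 normalized counts and was not tested, and without the third WT sample its log2 fold change was 0.96, just under a 2-fold difference. Six3 lies at chr17:85613608-85629302 on the plus strand.

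Tcf4, the E protein, was the most abundant of the 8 by reads and had the smallest difference. It had 4456, 4515 and 4460 normalized counts in WT and 5212, 5373 and 4989 in Setd5+/-. The groups did not overlap, and the level was 1.16-fold higher (1.12 to 1.2), within the middle range of tested genes, since 35.2% of them had a log2 fold change as high or higher. Tcf4 lies on chromosome 18.

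**Figure D2:**
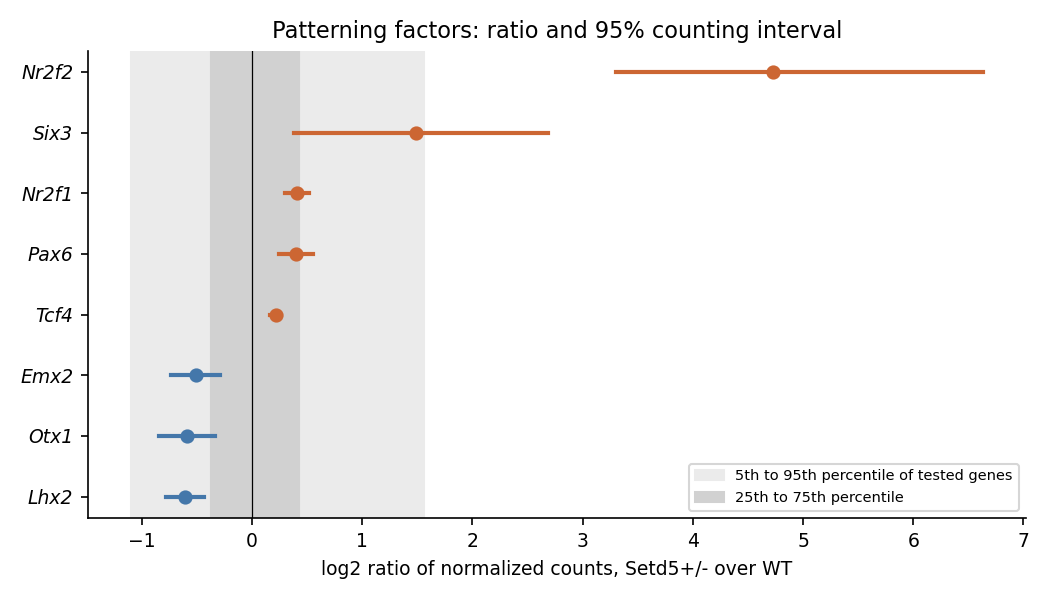
log2 ratio of normalized counts, Setd5+/- over WT (horizontal axis), for each of the 8 factors with its 95% counting interval (bars), over the 5th to 95th and 25th to 75th percentiles of the log2 fold changes of all tested genes (grey, computed with a pseudocount of 1). No interval reaches 0, Nr2f2 at 4.72 lies outside the grey range with its whole interval, and the other 7 ratios lie inside the wider range.

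The windows before the transcription starts of Lhx2, Pax6 and Nr2f2 are shown because they stand for a lower member, a higher homeodomain member and the member with the largest ratio, and because each window ends at or next to the annotated gene start. They are the 250 bases before a RefSeq start (GRCm38.p6), 5′ to 3′ on the strand of the gene, at chr2:38339031-38339280 (+), chr2:105668646-105668895 (+) and chr7:70366747-70366996 (-). Lhx2 and Pax6 each had 2 such windows and Nr2f2 had 1. The first listed was taken, and the other window of Lhx2 and of Pax6 is not described here. Capitals mark matches to TAATCC, the core bound by Otx-type homeodomains, or its reverse complement.
Lhx2: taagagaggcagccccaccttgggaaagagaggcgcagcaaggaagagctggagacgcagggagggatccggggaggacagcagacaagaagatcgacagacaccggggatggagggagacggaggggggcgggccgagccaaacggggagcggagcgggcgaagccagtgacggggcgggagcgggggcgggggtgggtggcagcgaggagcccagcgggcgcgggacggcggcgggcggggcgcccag
Pax6: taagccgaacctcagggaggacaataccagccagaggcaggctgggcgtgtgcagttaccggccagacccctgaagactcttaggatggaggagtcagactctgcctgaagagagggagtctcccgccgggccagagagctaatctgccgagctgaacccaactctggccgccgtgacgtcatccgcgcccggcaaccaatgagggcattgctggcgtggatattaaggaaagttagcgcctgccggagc
Nr2f2: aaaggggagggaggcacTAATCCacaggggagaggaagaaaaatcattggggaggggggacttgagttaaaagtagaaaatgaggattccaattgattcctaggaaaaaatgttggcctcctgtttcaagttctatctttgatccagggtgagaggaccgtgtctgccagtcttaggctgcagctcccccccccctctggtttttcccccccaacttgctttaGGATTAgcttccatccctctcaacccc

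The windows differed in base composition. The Lhx2 window was 72.8% G or C with 25 CpG dinucleotides, the Pax6 window 60.8% with 15, and the Nr2f2 window 50% with 1, beside medians of 52.4% and 6 CpG over 32817 windows of the same length. On both strands, AGGTCA (a half-site of nuclear receptors, held by 14% of all windows), TAATTA (a homeodomain core, 4.85%) and CAGCTG (an E-box, 13.0%) had no match in the 3 windows. TAATCC (6.25% of all windows) had 2 matches, both in the Nr2f2 window and in opposite orientation, the first starting at base 18 of the window. RefSeq windows were given for 6 of the 8 factors.

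Per kilobase of exon, where genes can be compared, the levels in WT ran from Tcf4 (164 normalized counts per kb) over Nr2f1 (148), Lhx2 (111), Emx2 (94.3), Otx1 (41.0) and Pax6 (34.4) to Six3 (1.12) and Nr2f2 (0.256). Only Six3 and Nr2f2 had overlapping values among neighbours in that order. In Setd5+/- the order was Nr2f1 (197), Tcf4 (190), Lhx2 (72.8), Emx2 (66.1), Pax6 (45.3), Otx1 (27.2), Nr2f2 (6.77) and Six3 (3.14). There Nr2f1 and Tcf4, Lhx2 and Emx2, and Nr2f2 and Six3 overlapped. On this scale Pax6 and Otx1 changed places without overlap in either library, with Otx1 above Pax6 in WT and below it in Setd5+/-. That crossing rests on the lengths used, 11694 bases for Pax6 and 5422 for Otx1. By normalized counts Pax6 was above Otx1 in both libraries.

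Ratios between 2 factors within a sample do not depend on the scaling between libraries, but the pairs were chosen with the directions known, so which ratios separate the 2 libraries follows largely from that choice and the values are a description. Per kilobase, the ratio of Pax6 to Emx2, the opposing factors of the cortical gradient, was 0.338, 0.439 and 0.329 in WT and 0.664, 0.633 and 0.774 in Setd5+/-. The ratio of Nr2f1 to Emx2 lay between 1.43 and 1.79 in WT and between 2.57 and 3.36 in Setd5+/-. Against Lhx2, Pax6 went from 0.304 to 0.319 in WT to 0.605 to 0.632 in Setd5+/-, and Nr2f1 from 1.29 to 1.43 to 2.57 to 2.94. All 4 of these ratios were larger in the mutant samples, with no overlap. Ratios among factors of the same direction overlapped: Nr2f1 to Pax6 lay between 4.07 and 4.69 in WT and between 4.06 and 4.65 in Setd5+/-, Lhx2 to Emx2 between 1.08 and 1.38 and between 1.00 and 1.28, and Otx1 to Emx2 between 0.411 and 0.477 and between 0.376 and 0.436.

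**Figure D3:**
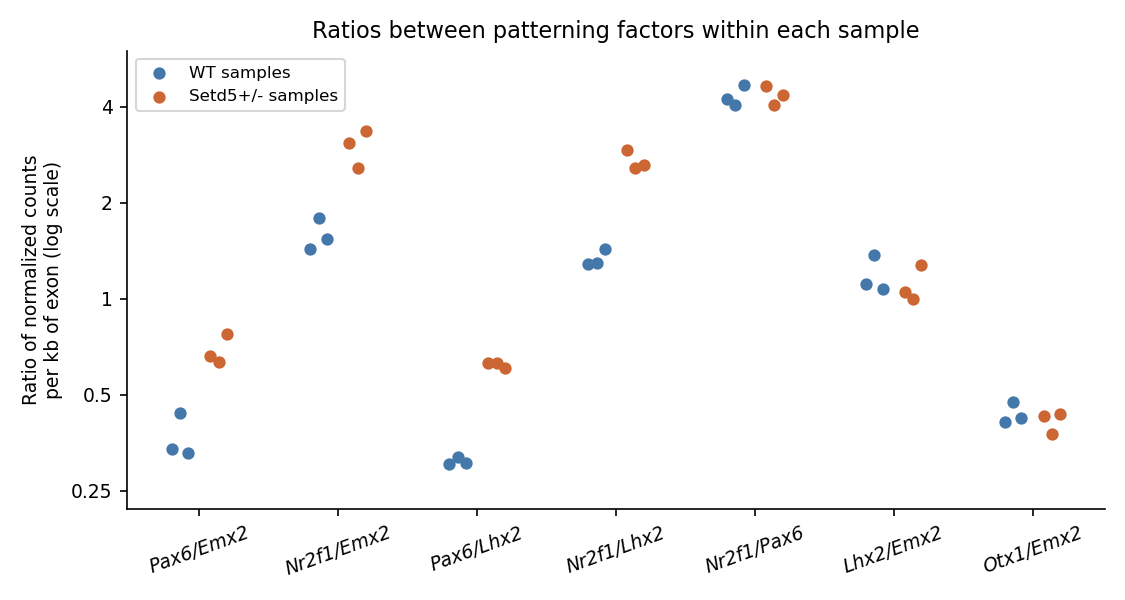
Ratios of normalized counts per kb of exon between pairs of factors in each sample (vertical axis, log scale), WT samples in blue and Setd5+/- samples in orange. The pairs were chosen with the directions known. The 4 ratios of Pax6 or Nr2f1 to Emx2 or Lhx2 do not overlap between the 2 libraries, and the 3 ratios between factors of the same direction do.

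Several factors share their locus with a noncoding gene on the opposite strand, and the sources do not say whether reads were counted by strand. Reads in shared exonic bases may therefore have been counted for either gene, and their part in the values below was not tested. Emx2os, which starts head to head with Emx2 and shares 264 exonic bases with it, had 75.5, 66.2 and 58.0 normalized counts in WT and 25.03, 26.2 and 29.8 in Setd5+/-. It was 2.46-fold lower (1.67 to 3.72), the direction of Emx2. A830082K12Rik, which shares 123 exonic bases with Nr2f1, had 299.4, 302.0 and 300.6 normalized counts in WT and 401.6, 390.6 and 438.4 in Setd5+/-. It was 1.36-fold higher (1.21 to 1.54), close to the ratio of Nr2f1.

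At Six3 the pair went opposite ways. Six3os1, which shares 106 exonic bases with Six3, had 43.1, 35.6 and 26.5 normalized counts in WT and 4.77, 7.15 and 9.53 in Setd5+/-, from 127 and 18 reads, and was 4.91-fold lower (2.43 to 11.2). In WT it held more reads than Six3 itself and in Setd5+/- fewer. Six3os1 had passed the filter only through the WT library, with a Setd5+/- mean of 7.15, and Six3 only through the Setd5+/- library. As tested genes, each could have entered only in the direction shown. At Nr2f2, B130024G19Rik, which shares 643 exonic bases, had 0 reads in WT and 2 in Setd5+/-, so its reads were few beside the 147 of Nr2f2. Pax6os1 was at 0 in all 6 samples, and Paupar, a noncoding gene near Pax6, had 4 reads in each library. The genes inside Lhx2, Gm27197 and Gm13584, had at most 7 reads in a library. Gm28528 at Six3 had 0 and 2 reads, and the small RNA genes annotated inside Six3 and Tcf4 at most 8. Of other antisense genes of the list, Otx2os1 had 0 and 1 reads and Gm20611 0 in all samples.

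The closest paralogs did not share one pattern. Tcf12, the E protein nearest to Tcf4, had 2780, 2759 and 2753 normalized counts in WT and 6165, 5988 and 5878 in Setd5+/-, which was 2.17-fold higher (2.10 to 2.25). Tcf3, the remaining E protein, was 1.14-fold lower (1.06 to 1.22), and Nr2f6, the third COUP-TF relative, 1.38-fold lower (1.24 to 1.55). Otx2, the anterior paralog of Otx1, had 3.32, 0 and 0 normalized counts in WT and 11.9, 4.76 and 5.96 in Setd5+/-, from 4 and 19 reads, a ratio of 6.83 (1.44 to 64.5) that was not tested because of its low level. Emx1 had 2 and 0 reads, Lhx9 0 and 2, and Six6 none. Of the 3 paralogs tested, 1 passed a 2-fold difference, beside 16.4% of all tested genes.

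Among the pairs of factors and paralogs that were compared, Nr2f1 and Nr2f2 shared the longest identical stretch of transcript. In the mutant library Nr2f1 held 2528 reads and Nr2f2 147. Their longest identical stretch was 59 bases, in the coding sequence at chr13:78198284-78198342 (-) and chr7:70360052-70360110 (-), in GENCODE vM21 transcripts.
Nr2f1 and Nr2f2, shared: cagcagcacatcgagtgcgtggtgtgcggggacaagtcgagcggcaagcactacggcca
The WT library held 2739 reads on Nr2f1 and 8 on Nr2f2. Whether reads of one gene were counted on the other was not tested. For Tcf4 and Tcf12 the longest identical stretch was 47 bases, and for the other pairs it was 14 to 23.

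None of the 8 factors lies on chromosome 1, where the median log2 fold change of 1044 tested genes was 0.53. The 3 nearest tested genes on each side of each factor were compared with it. Around Nr2f2 their log2 fold changes ranged from -1.02 to 1.38 with a median of 0.05, up to 2944 kb away, and around Six3 from -0.63 to 0.44. Around Lhx2 they ranged from -0.43 to 0.12 and around Otx1 from -1.06 to 0.85. Lhx2 at -0.61 was thus lower than each of its 6 neighbours, and Six3 and Nr2f2 were higher than each of theirs. Six3 and Nr2f2 had passed the filter only through the Setd5+/- library, so their place above their neighbours follows in part from the filter. Otx1, Emx2, Pax6, Nr2f1 and Tcf4 each had a neighbour that lay further in the factor's own direction. Around Emx2 the median was 0.52, opposite in sign to Emx2 at -0.51, and around Pax6 it was 0.36 beside 0.40 for Pax6. Over the 48 neighbours, 3 were higher and 3 lower by 2-fold, beside 10.3% and 6.14% of all tested genes. Among these, Hspa12a near Emx2 had passed the filter only through the Setd5+/- library, with a WT mean of 4.97. CT025603.3 near Nr2f1 and 4930429H19Rik near Nr2f2 had passed it only through the WT library, with Setd5+/- means of 7.55 and 9.13. The lowest value around Nr2f2, -1.02, is that of 4930429H19Rik.

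**Figure D4:**
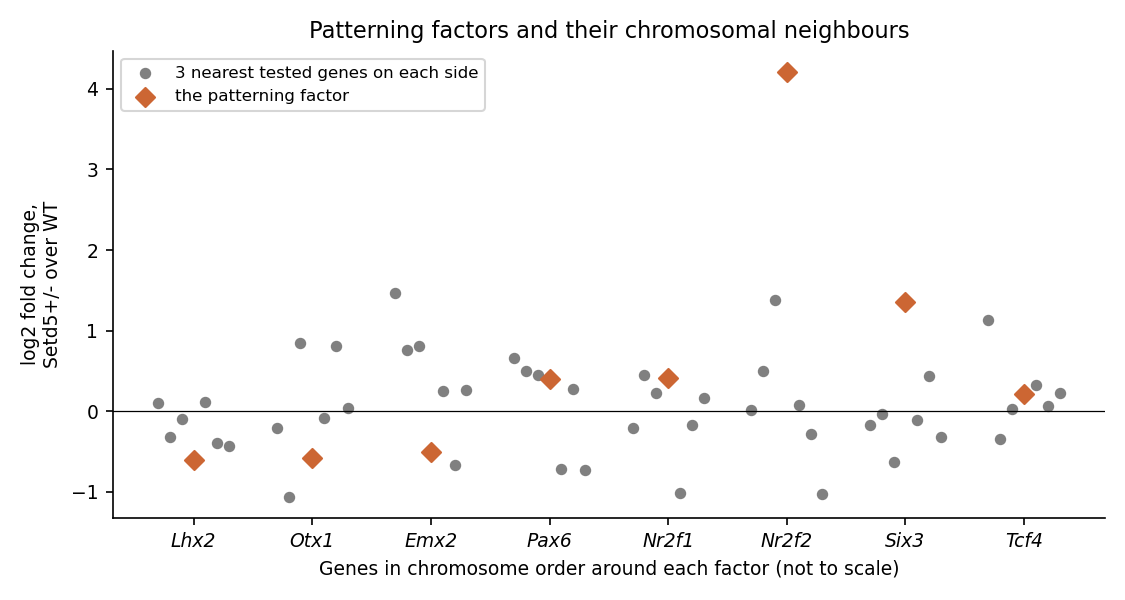
log2 fold change, Setd5+/- over WT (vertical axis, pseudocount 1), of each factor (diamond) and of the 3 nearest tested genes on each side (grey, in chromosome order, distances not drawn). Nr2f2 at 4.21 and Six3 at 1.35, which passed the filter only through the Setd5+/- library, stand above all 6 of their neighbours. Lhx2 stands below its own, and each other factor has a neighbour further out in its direction.

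Other genes of regional identity were sparse. Over all tested genes, 10.3% were higher and 6.14% lower by 2-fold, beside the counts of the lists below. Of 15 other pallial factors 7 were tested, with 1 higher and 1 lower by 2-fold and a median of -0.42. Gli3, the repressor of ventral fate, was 3.25-fold higher (2.47 to 4.32), and Neurog2, the proneural factor of the cortex, had 262 reads in WT and 2 in Setd5+/-, which was 91.1-fold lower (16.1 to 3624). Of 15 subpallial factors 7 were tested, with 2 higher and 1 lower. Dlx1 was 17.3-fold higher (5.45 to 87.6) and Sp9 3.72-fold higher (2.50 to 5.62), while Gsx1, with 118 reads in WT and 0 in Setd5+/-, was at least 13.7-fold lower against a floor of 3 read pairs, and the lower limit of its counting interval was 10.8. Of 17 diencephalic and eye factors 6 were tested, of which 2 were higher and 1 lower, with Irx3 (4.01-fold) and Irx5 (4.03-fold) higher and Gbx2 3.63-fold lower. Of 18 midbrain and hindbrain factors 6 were tested, with 2 higher and 1 lower. En1 had 2 and 157 reads, 113-fold higher (19.7 to 4516), En2 5 and 200 reads, and Egr2 468 and 11 reads. En1, En2 and Dlx1 had passed the filter only through the Setd5+/- library, with WT means of 0.553, 1.38 and 1.66 normalized counts. They could have entered only as higher. Neurog2, Gsx1 and Egr2 had passed it only through the WT library, with Setd5+/- means of 0.795, 0 and 4.37. These could have entered only as lower.

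Among the proteins that work with the 8 factors, 20 of 22 were tested, with 1 higher and 2 lower by 2-fold and a median of -0.26. Lmo1, a LIM-only protein that competes for the Lhx2 cofactor Ldb1, was 3.55-fold higher (3.12 to 4.04). Id4, an inhibitor that binds E proteins such as Tcf4, was 2.95-fold lower (2.34 to 3.74), and Zfpm1 (FOG1), a zinc finger partner of COUP-TFs, was 2.22-fold lower (1.44 to 3.55). By 2-fold, 10.3% of all tested genes were higher and 6.14% lower. By limma 5 partners were higher and 12 lower, and 3 did not pass, beside 30.3% and 30.9% of all tested genes called higher and lower.

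Of 5 genes known as targets of Pax6, 4 were tested and 3 were lower by 2-fold, beside 6.14% of all tested genes. Besides Neurog2, which had passed the filter only through the WT library, these were Fabp7, 3.13-fold lower (3.08 to 3.19), and Sfrp2, 6.47-fold lower (4.79 to 8.90). Pax6 itself was higher. The list was chosen with earlier results known, and a part of Pax6 in these values was not tested. Dmrta1 was 1.61-fold higher (1.18 to 2.21) with overlapping samples, and Eomes had 6 and 12 reads. Of 19 secreted signals of the patterning centres 5 were tested, of which Sfrp1 was 2.57-fold higher, and Sfrp2 and Bmp7, at 2.45-fold, lower. By 2-fold, 10.3% of all tested genes were higher and 6.14% lower.

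**Figure D5:**
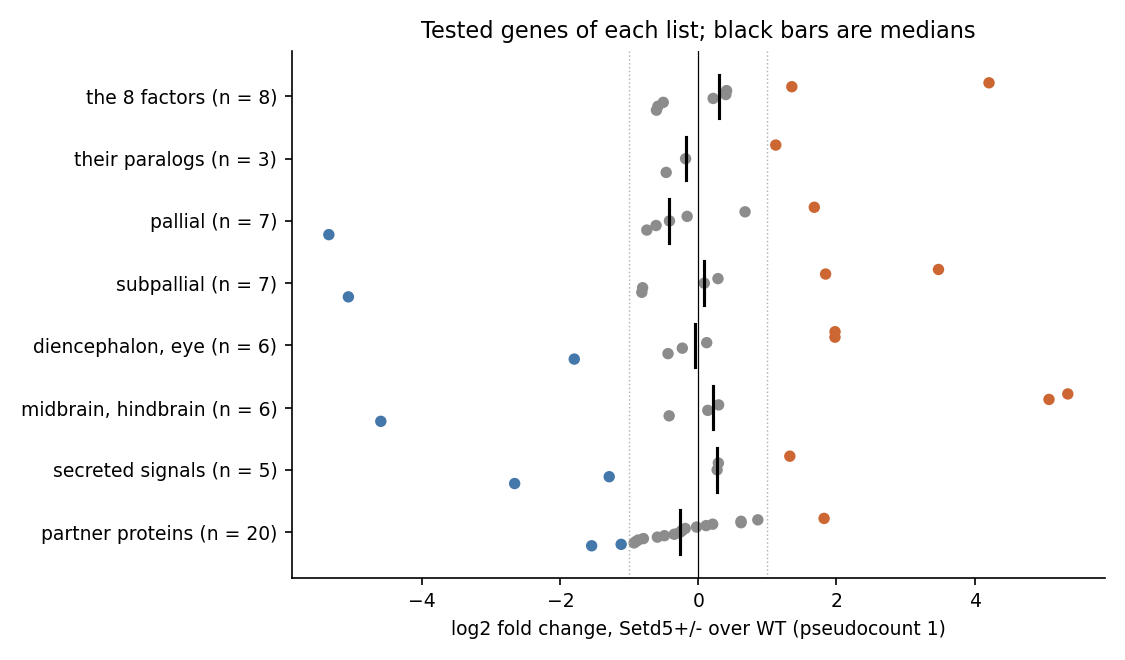
log2 fold change, Setd5+/- over WT (horizontal axis, pseudocount 1), of each tested gene in the lists named at the left, with orange points at least 2-fold higher, blue points at least 2-fold lower and black bars at the median. The 8 factors have 2 points beyond the dotted 2-fold lines, both higher, and the pallial list has its median at -0.42.

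Markers of the labelled cell type and of others were read beside these values. All 12 NSC markers were tested, and their summed level was 77391 to 77585 normalized counts in WT and 61687 to 62572 in Setd5+/-. Fabp7, with means of 36015 and 11490, fell by more than this sum, so the other markers together were not lower. By 2-fold Notch1 was higher and Prom1, Fabp7 and Hes1 were lower, and by limma 3 were higher and 8 lower. Over all tested genes, 10.3% were higher and 6.14% lower by 2-fold, and limma called 30.3% higher and 30.9% lower. Emx1, a factor of the dorsal telencephalon, was near 0 in both. Oligodendrocyte lineage markers, with 8 of 8 detected, summed to 40997 to 41788 in WT and 23688 to 24533 in Setd5+/-. Sox10 had 1080 and 4 reads, and Mbp 117 and 16. Astrocyte markers, 6 of 6 detected, summed to 7091 to 7212 and 3905 to 4190, with Gfap, Aqp4 and S100b higher and Aldh1l1 and Slc1a2 lower by 2-fold. Gja1 was 1.11-fold lower (1.04 to 1.17). Neuronal markers, 8 of 9 detected, summed to 10245 to 10611 and 12476 to 12594, mostly from Map2, with Syt1, Dcx and Snap25 lower by 2-fold and Neurod1 at 0. Map2 lies on chromosome 1, where the median log2 fold change of tested genes was 0.53. With means of 9983 and 12445, Map2 rose by more than the neuronal sum, so the other neuronal markers together were not higher. Mesenchymal markers, 7 of 9 detected with Lum and Twist1 at 0, summed to 485 to 498 and 614 to 730. Microglial markers, 3 of 5 in the table detected with Cx3cr1 and Ptprc at 0, summed to 78.6 to 117 and 51.2 to 70.3, and endothelial markers, 5 of 5, to 9.11 to 16.5 and 13.1 to 26.2. Csf1r, the microglial marker tested, was 1.83-fold lower (1.37 to 2.46). Kdr, the endothelial marker tested, was 2.81-fold higher (1.33 to 6.31) and had passed the filter only through the Setd5+/- library. Prom1, Sox10, Mbp, Syt1 and Snap25 had passed it only through the WT library, so they could have entered only as lower. The part of these differences in the values of the 8 factors was not tested.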

How the data were processed

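The 3 WT and 3 Setd5+/- RNA-seq samples (TruSeq RNA v2, paired ends) came from NSCs at 21% oxygen. Reads were trimmed by the authors with Trimmomatic and aligned with Bowtie2 to mm10, and the reads counted on each gene were divided by DESeq2 size factors. The program that counted reads and its use of strand are not given in the sources used here. The deposited values are therefore normalized counts, not raw counts. Their unit is recorded as other because many had lost their decimal point. The deposited table also holds the authors' log2 fold changes, standard errors and p-values, which were not used.

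Decimal points were restored first. In each sample the value of 1 read was found from low counts (0.827 to 0.829 normalized counts in WT, 1.19 in Setd5+/-), and each point was set so that values were whole multiples of it and matched within the genotype. The deposited mean was matched by 52252 genes placed this way and was needed to place 186 others, none of them among the 8 factors. On simulated data 100% of 314628 values were restored.

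The 16266 genes that averaged 10 or more normalized counts entered a limma fit (version 3.58.1, R 4.3.3) on log2(normalized count + 1) with a trended prior, at a Benjamini-Hochberg adjusted p under 0.05. The fit was tested on simulated data. With 1 library per genotype these calls compare the reads of 2 libraries, not the genotypes, so no SD and no p-value per gene is given. Replicate numbers paired nothing, since deviations of same-numbered samples correlated at 0.005, 0.002 and -0.007. A log2 fold change is log2((mean Setd5+/- + 1)/(mean WT + 1)), which understates changes of low genes. A ratio has no pseudocount, and its exact 95% (Clopper-Pearson) interval was taken on read pairs, because both mates were counted and the variance of reads over their mean was 1.96 in WT and 1.94 in Setd5+/-. Intervals and the floor of 3 read pairs for a count of 0 cover counting error only. Positions, exon lengths and overlaps are from GENCODE vM21 (GRCm38), and promoter windows from RefSeq.

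The 8 factors and the gene lists were chosen with earlier results of these data known. Named beside the 8 are Setd5, overlapping genes, paralogs, and in each list up to 2 tested genes with the largest rise and 2 with the largest fall past 2-fold, or all tested genes in lists of up to 7. Hes1, Snap25 and Map2 were named after their values were seen, as were the pairs of factors in the ratios. No search for genes of like pattern was made, because 2 libraries give each gene only 1 difference. The design foresaw a test on normalized counts, which was kept. The low-oxygen data were not analysed here, and 1 gene of the pallial list is not reported here. Alternatives were the pseudocount, the filter, the scaling, the decimal points without the deposited mean, a replicate block, the call thresholds and leaving out each sample.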

Additional observations from a re-analysis of the deposited data

How the results depend on the processing

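Every alternative kept the direction of each factor it could fit, in 109 of 109 values, with log2 fold changes from -0.65 to -0.57 for Lhx2, -0.63 to -0.53 for Otx1, -0.59 to -0.42 for Emx2, 0.35 to 0.44 for Pax6, 0.36 to 0.45 for Nr2f1, 3.14 to 5.02 for Nr2f2, 0.96 to 1.60 for Six3 and 0.17 to 0.26 for Tcf4. The numbers of factors past 2-fold rest on Six3. With a pseudocount of 5 its log2 fold change was 0.995, just under the bound, which left 1 factor higher. With a minimum mean of 50 normalized counts Six3 and Nr2f2 were not tested, 0 factors were higher by 2-fold, 3 were called higher by limma, and the median of the remaining 6 was -0.15, opposite in sign to 0.31. The median was 0.19 without Setd5+/- replicate 2 and 0.28 to 0.32 without any other sample. Leaving out 1 sample gave 1 to 2 factors higher, with 1 without WT replicate 3 or Setd5+/- replicate 2. At 1.5-fold in place of 2-fold 2 factors were lower, Lhx2 and Otx1.

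With the replicate number as a block (replicate block in limma) 5 factors were higher and 3 lower, as without it. By limma 4 were higher, with Six3 no longer called, with no filter on low values, at an adjusted p under 0.01 and without WT replicate 3, and 4 also without Setd5+/- replicate 2, where Six3 was not tested. The 3 lower factors were called in each of these. Of 46 tested genes of the regional and partner lists, 8 were higher and 6 lower by 2-fold, beside 10.3% and 6.14% of all tested genes. Among them were genes that had passed the filter through 1 library only. Without a filter on low values 18 were higher, and with a minimum mean of 50 normalized counts 4 were higher and 2 lower. Of the 48 neighbours, 3 were lower, against 1 with a pseudocount of 5, with a minimum mean of 50 normalized counts or with chromosome 1 left out of the scaling, and 1 to 3 when 1 sample was left out, with 1 without WT replicate 3. Counts for single lists stayed within 1.5 times in 826 of 870 cases. Other scalings moved the mutant library by -0.044 to 0.042 on the log2 scale. Over all tested genes, 1668 were higher and 998 lower by 2-fold, against 3141 and 2400 with no filter and 1032 and 588 with the minimum of 50. Depth limits Six3 and Nr2f2, whose WT levels rest on 22 and 8 reads. With 1 library per genotype, no alternative bears on how clones or cultures differ. The shifts under the stricter filter follow from the genes no longer tested. The cause of the others was not tested.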
